A study of Mus musculus with 56 samples.

Results

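The respiratory chain was followed here through 101 genes, 88 carried in nuclear DNA and 13 in mitochondrial DNA, among the 49045 genes present in both deposited tables. Members were taken by gene name: the Ndufa, Ndufb, Ndufc, Ndufs and Ndufv families, Sdha to Sdhd, and the Uqcr, Cox4 to Cox8 and Atp5 families on the nuclear side, and the mt-Nd, mt-Co, mt-Atp and mt-Cyt genes on the mitochondrial side. Of 111 names that matched in both tables, 7 carrying a pseudogene suffix were left out, and 3 genes (Cox4i2, Cox7b2 and Cox8c) had fewer than 10 counts in all but 2 or fewer libraries. The nuclear members comprised 38 subunits named for complex I, 8 complex I assembly factors of the Ndufaf family, 4 subunits of complex II, 8 of complex III, 15 of complex IV and 15 of complex V.

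The respiratory chain is the set of protein complexes in the inner mitochondrial membrane that pass electrons from NADH and succinate to oxygen and pump protons, and ATP synthase (complex V) uses the resulting gradient to make ATP. Complexes I, III, IV and V are assembled from subunits encoded in both genomes, whereas complex II is encoded in the nucleus alone. Mitochondrial DNA is transcribed from both strands as long RNAs that are cut into messenger, ribosomal and transfer RNAs, so the mitochondrial members share their transcription while each nuclear member has a promoter of its own. In macrophages, respiration is known to differ between inflammatory and reparative states.

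The libraries were made from monocytes and macrophages sorted from injured tissue of 10-week-old mice, each of which had 1 injury: a myocardial infarction in the heart, a cranial defect in bone, volumetric muscle loss in muscle or a full-thickness biopsy punch in skin. Treg-depleted mice carried the Foxp3(DTR/GFP) allele (FDG), which places the diphtheria toxin receptor and green fluorescent protein under the control of Foxp3, the transcription factor of regulatory T cells. Control mice were wild-type C57BL/6J. All mice of both arms received diphtheria toxin at 20 ng/g, starting 2 days before injury, daily until injury and then every 2 days for 1 week, so that genotype and depletion go together. There were 56 libraries: 3 per arm in heart at days 4 and 7, 5 per arm in bone at day 7 and 3 per arm at day 10, 3 per arm in muscle at days 4 and 7, and 4 per arm in skin at days 4 and 7. The bone days are those of the sample labels, while the design text names days 4 and 7. Whether each library is a mouse of its own is not stated in the labels. The p-values therefore describe library-to-library spread, which may be technical.

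Heart libraries held 2642452 to 9788811 counts, bone libraries 2318268 to 5835113, muscle libraries 3439692 to 6397434 and skin libraries 3013776 to 5392932. Levels are given as CPM, counts scaled to a common library total, and changes as log2 fold changes with their standard errors (SE) from edgeR's quasi-likelihood test, called at a Benjamini-Hochberg adjusted p under 0.05 over all genes tested. The cDNA was primed at the poly-A tail, so counts are not scaled by gene length and levels are compared between groups, not between genes. Summed macrophage and monocyte markers reached 9448 to 33968 CPM in the 16 groups, and in bone, muscle and skin none of the 10 markers was at 0. Neutrophil markers summed to 5080 to 29571 CPM in bone, against 194 to 2752 CPM in the other tissues.

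Several mitochondrial members have near-identical copies in the nuclear genome that were counted as genes of their own, so a pair of these sequences is shown first. In the GENCODE annotation of GRCm38, mt-Nd3, a subunit of complex I, lies at MT:9459-9806 on the plus strand, and its copy Gm28438, an unprocessed pseudogene, at chr1:24612775-24613119 on the minus strand. Over 345 aligned bases the copies differed at 1 base, T3C, counted from the 5′ end of mt-Nd3. The first bases of each, with that base in capitals, are shown because a read that misses this base matches both reference sequences equally. Which base the mitochondrial DNA of the mice in each arm carries was not tested, so this base is not taken as a mark of origin.
mt-Nd3 (MT:9459-9475, plus strand): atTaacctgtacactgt
Gm28438 (chr1:24613103-24613119, minus strand): atCaacctgtacactgt
The copies Gm28437 of mt-Co3, Gm10925 of mt-Atp6, Gm28661 of mt-Co2 and Gm10222 of mt-Nd4l had 0 differences over the 783, 678, 681 and 294 aligned bases. Counted in words of 31 bases, 12 of the 13 mitochondrial members shared 5% or more of their transcript sequence with another gene. The exception was mt-Nd1 (MT:2751-3707), a complex I subunit that shared none. Of the nuclear members, 42 of 88 shared 5% or more of their words with another gene. The gene sharing most was a copy for some, such as Uqcrh-ps1 for Uqcrh, and a gene of another name for others, such as Mrpl47 for Ndufb5.

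The deposited tables treated these copies differently. In the bone, muscle and skin table the copies took part of the counts, from 48.1% to 48.7% of mt-Co3 plus Gm28437, 45.0% to 46.6% of mt-Co2 plus Gm28661 and 34.4% to 39.3% of mt-Atp6 plus Gm10925. In the heart table mt-Nd4l and mt-Atp8 were listed at 0 in all 12 libraries, mt-Co2 had at most 2 counts, mt-Atp6 at most 4 and mt-Co3 at most 65, so these 5 members were not tested in heart. Summed mitochondrial levels are therefore not compared between heart and the other tissues.

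For mt-Nd3, the share of counts given to the copy followed the arm in heart, muscle and skin. Heart libraries had few counts at this locus: mt-Nd3 had 15, 22 and 16 counts in day-4 controls against 1, 0 and 1 in depleted libraries, while Gm28438 had 0 in each control and 33, 16 and 28 in the depleted libraries. At day 7 in heart, mt-Nd3 had 44, 50 and 52 counts in controls and 0 in each depleted library, and Gm28438 had 3, 0 and 1 against 44, 49 and 19. Counts of this sequence thus stood almost wholly under the mitochondrial gene in controls and under the nuclear copy in depleted libraries, and neither row on its own measures the transcript. In skin the copy's share was 42.3% to 44.1% in depleted and 38.2% to 40.3% in control libraries at day 4, and 43.0% to 44.1% against 40.4% to 41.4% at day 7. Neither pair of ranges overlapped, and each gave an exact two-sided permutation p of 0.0286, or 0.114 adjusted over the 8 comparisons. The shares did not overlap in muscle either, at 40.9% to 41.9% against 39.1% to 39.5% at day 4 and 40.7% to 42.5% against 37.6% to 40.5% at day 7, where 3 libraries against 3 cannot give a p below 0.1. In bone the ranges overlapped on both days (exact permutation p = 0.357 at day 7 and 0.9 at day 10).

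**Figure D1:**
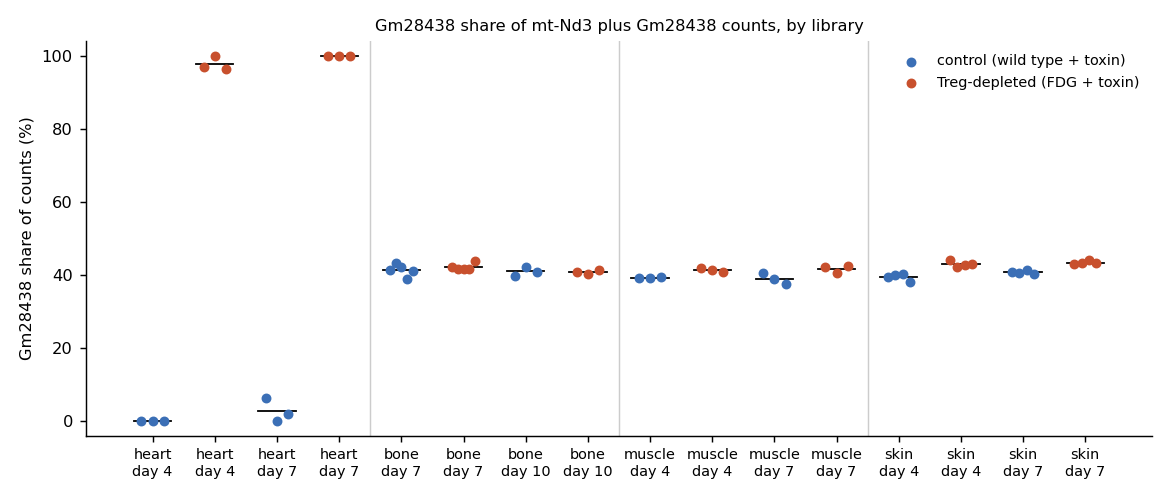
Share of counts given to the nuclear copy Gm28438, in percent of mt-Nd3 plus Gm28438 counts, for each library (points) and group mean (lines). In heart the depleted libraries lie between 96.6% and 100% and the controls between 0% and 6.38%, while in bone, muscle and skin all libraries lie between 37.6% and 44.1%.

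In control libraries at day 7 the sets stood in opposite order across tissues. The 88 nuclear members summed to 31619, 34540, 30059, 29533 and 32558 CPM in bone, to 25261, 24489 and 25806 CPM in muscle and to 24233, 24686, 20933 and 21709 CPM in skin. The 13 mitochondrial members summed to 5848, 7278, 6947, 7480 and 8575 CPM in bone, 9345, 8958 and 10355 CPM in muscle and 10827, 9897, 11448 and 10993 CPM in skin. Bone had the highest nuclear and the lowest mitochondrial sums, with no overlap with muscle or skin on either. The log2 ratio of mitochondrial to nuclear sums was -2.14 ± 0.21 (SD, n = 5) in bone, -1.40 ± 0.07 (SD, n = 3) in muscle and -1.08 ± 0.20 (SD, n = 4) in skin. Each of the 3 quantities gave the same exact two-sided permutation p, 0.0179 for bone against muscle and 0.00794 for bone against skin, or 0.0268 and 0.0238 adjusted over 9 comparisons. Muscle and skin overlapped in all 3 quantities, with an adjusted p of 0.0964 for the ratio in the exact permutation test.

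Single members moved in the same directions. Bone exceeded muscle in 28 of 87 nuclear members tested and was lower in 1, and no mitochondrial member was higher while 3 of 13 were lower, where 13.6% of all genes tested were called (6.28% higher and 7.32% lower). Against skin, bone was higher in 48 of 87 nuclear members and lower in 0, and lower in 11 of 13 mitochondrial members, against 25.6% of all genes (11.5% higher and 14.1% lower). Muscle and skin differed in 5 of 87 nuclear members, 3 higher in muscle, with 11.9% of all genes called (5.17% higher and 6.76% lower), and in 2 without any 1 muscle control or skin control replicate 4. No mitochondrial member of 13 was called between muscle and skin in edgeR, where 4 had an unadjusted p under 0.05 and DESeq2 called 1. Without 1 of the muscle controls the number of nuclear members called between bone and muscle fell from 29 to 16 (replicate 1) or 15 (replicate 2).

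Complex I held most of the members called and was also the largest group, with 38 of the 87 nuclear members tested. Bone controls were above skin controls in 31 of the 38 members named for complex I, with a median log2 difference of 0.48, and above muscle controls in 16, with a median of 0.35. Over all genes tested 11.5% were higher in bone than in skin and 6.28% higher than in muscle. The 38 include Ndufa4, a subunit of complex IV placed here by its name, which was higher in bone than in skin by 0.71. Ndufb7, an accessory subunit of the membrane arm, had 447 to 498 CPM in bone, 290 to 343 CPM in muscle and 257 to 274 CPM in skin. The bone values lay above all muscle and skin values, and the difference from skin was 0.79 (SE 0.11, adjusted p = 7.75e-07). Ndufb11, another membrane-arm subunit, was higher in bone than in skin by 0.81 (SE 0.12) and than in muscle by 0.66 (SE 0.13). Ndufb8 and Ndufc1 were higher than in skin by 0.78 and 0.74. In complex III, 4 of 8 members were higher in bone than in skin, among them Uqcrc1, a core subunit, by 0.63 (SE 0.12), and Uqcrq by 0.61 (SE 0.12). In complex V 7 of 15 members were higher, with Atp5j, a subunit of the stalk, at 1.05 (SE 0.24) and Atp5k, a membrane subunit, at 0.72 (SE 0.11). Of the 4 members of complex II 1 was higher in bone than in skin, and 3 of 14 tested in complex IV.

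The mitochondrial members lower in bone than in skin ranged from mt-Co3, a core subunit of complex IV, at -0.46 (SE 0.14), to mt-Nd4l, a complex I subunit, at -1.14 (SE 0.23). Without control replicate 1 of bone 7 were called. For mt-Nd1, which shares no sequence with a nuclear copy, the levels were 373 to 582 CPM in bone, 753 to 854 CPM in muscle and 826 to 969 CPM in skin. The 3 members lower in bone than in muscle were mt-Nd1 at -0.75 (SE 0.17), mt-Nd4 at -0.68 (SE 0.18) and mt-Co2 at -0.53 (SE 0.16). In bulk samples, fewer cells of a type and less RNA per cell cannot be told apart. Neutrophil markers were higher in bone, with 7 of 12 above skin and 1 below and 9 of 12 above muscle, and the cytosolic ribosomal RNA gene Rn18s-rs5 was higher by 1.49 and 2.07. The part of neutrophil RNA and of ribosomal RNA in these differences was not tested.

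Other mitochondrial genes from a list outside the chain moved with the nuclear members. Of 81 mitochondrial ribosomal protein genes tested, 35 were higher in bone than in skin controls and 1 lower, with a median of 0.35, and 13 were higher than in muscle and 1 lower. Over all genes tested 11.5% were higher and 14.1% lower against skin, and 6.28% higher and 7.32% lower against muscle. In the tricarboxylic acid cycle 7 of 18 were higher in bone than in skin and 0 lower. The mitochondrial ribosomal RNAs, mt-Rnr1 and mt-Rnr2, were both lower in bone than in skin.

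**Figure D2:**
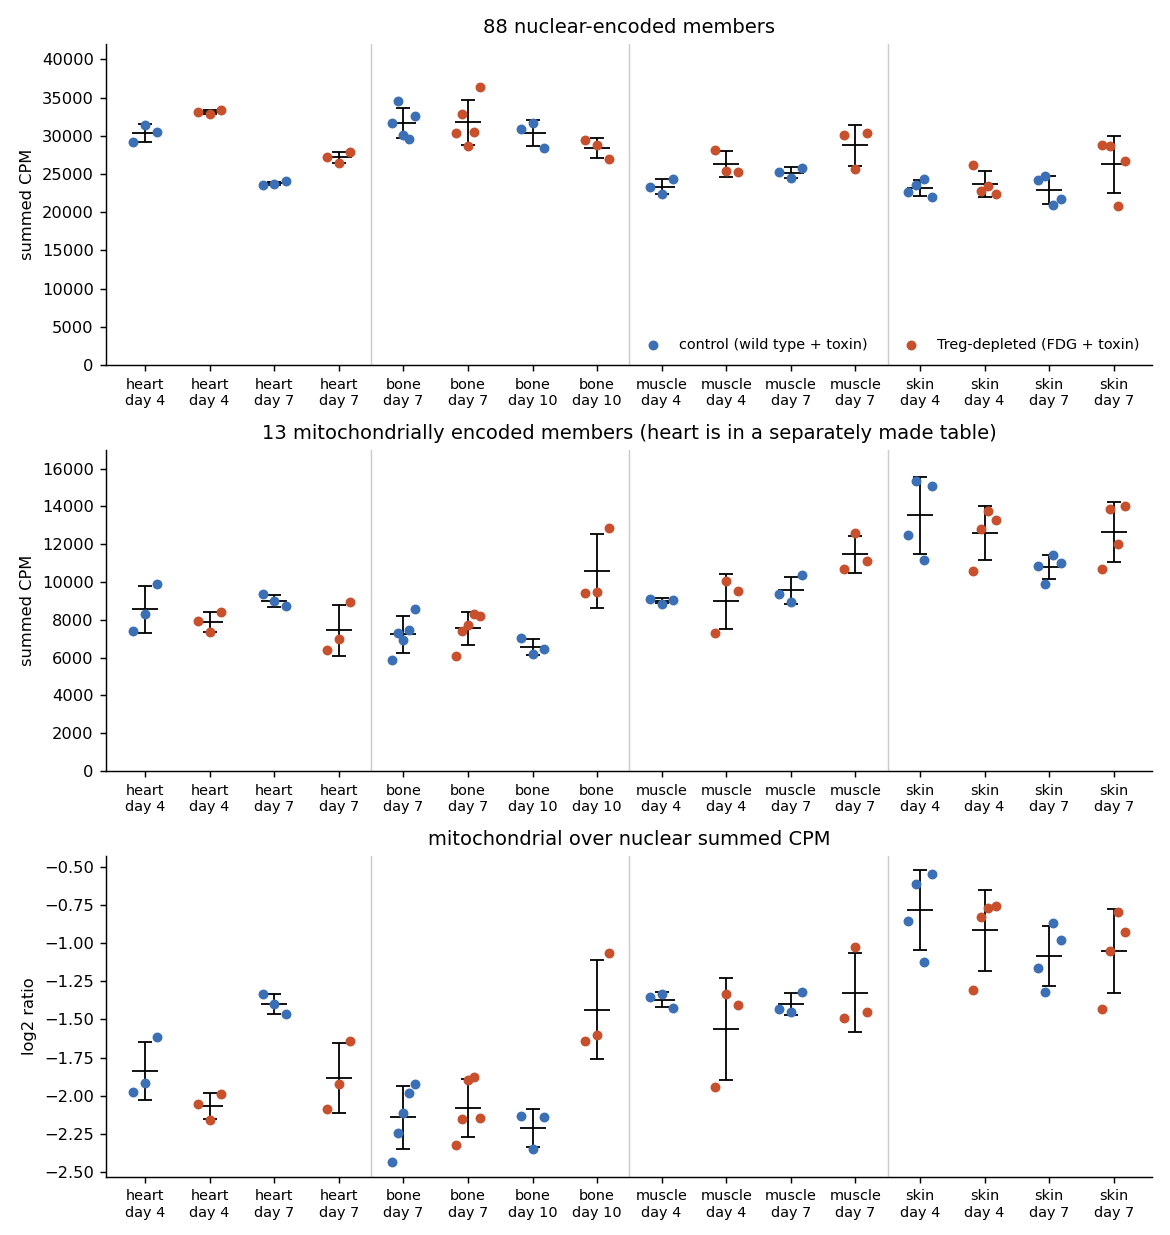
Summed CPM of the 88 nuclear members (top), of the 13 mitochondrial members (middle) and the log2 ratio of the sums (bottom) for each library (points), with the group mean and SD (bars). Bone controls at day 7 have the highest nuclear sums among bone, muscle and skin controls and ratios of -2.43 to -1.92, and the depleted bone libraries at day 10 have ratios of -1.64 to -1.06 against -2.35 to -2.13 in their controls.

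In bone at day 10 the mitochondrial members rose in depleted libraries and the nuclear members as a set did not. The mitochondrial sum was 9419, 9485 and 12872 CPM in depleted libraries against 7041, 6211 and 6439 CPM in controls, a 1.61-fold difference. The ranges did not overlap, and the exact two-sided permutation p of 0.1 is the smallest that 3 libraries against 3 allow. The nuclear sum was 28360 ± 1293 CPM (SD, n = 3) against 30326 ± 1724 CPM (SD, n = 3), with overlapping ranges. The log2 ratio was -1.64, -1.60 and -1.06 against -2.13, -2.35 and -2.14.

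Of 12 mitochondrial members tested in bone at day 10, 10 were higher in depleted libraries and 0 lower, with a median log2 change of 1.17, where 17.2% of all genes tested were called (8.95% higher and 8.22% lower). The complex I subunit mt-Nd5 had 159, 154 and 210 CPM in depleted against 92.5, 52.4 and 73.4 CPM in control libraries, and rose by 1.36 (SE 0.23, adjusted p = 0.000573). The catalytic subunit of complex IV, mt-Co1, had 1068, 1090 and 1746 CPM against 629, 562 and 589 CPM, a change of 1.23 (SE 0.20, adjusted p = 0.000506). For mt-Nd1 the values were 671, 587 and 994 CPM against 471, 350 and 430 CPM, a change of 0.95 (SE 0.20, adjusted p = 0.00307). In all 3 the depleted values lay above every control value, and replicate 3 was the highest. The other members called were mt-Nd3 at 1.79, mt-Nd4 at 1.24, mt-Co2 at 1.22, mt-Atp8 at 1.17, mt-Nd4l at 1.16, mt-Nd2 at 0.83 and mt-Co3 at 0.62. For mt-Nd3 the copy Gm28438 rose by the same amount, 1.81. The members that did not pass were mt-Cytb, the only mitochondrial subunit of complex III, at 0.20 (adjusted p = 0.567) with 860, 934 and 1059 CPM against 875, 1024 and 767 CPM, and mt-Atp6 at 0.49 (adjusted p = 0.0741). mt-Nd6, the only member on the opposite strand, had at most 2.28 CPM and was not tested.

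The nuclear members of bone at day 10 went both ways, with 3 of 86 higher, 6 lower and a median of -0.03. Over all genes tested 17.2% were called (8.95% higher and 8.22% lower), so the nuclear members were called less often than genes at large. In complex V, Atp5h (stalk), Atp5g3 (a gene of the membrane ring's c subunit) and Atp5l rose by 0.70, 0.61 and 0.44. Atp5g1, a gene for the same c subunit, fell: it had 492, 479 and 397 CPM in depleted and 758, 738 and 728 CPM in control libraries, a change of -0.59 (SE 0.13, adjusted p = 0.00434). Atp5g3 had 388, 383 and 405 CPM against 304, 277 and 248 CPM. The rows of these genes for one protein thus moved in opposite directions, each without overlap between the arms. Atp5g1 shares 14.1% of its sequence words with other genes and Atp5g3 shares 0%. The part of shared sequence in these changes was not tested. Uqcrc1 of complex III had 144, 207 and 169 CPM against 297, 351 and 307 CPM, a change of -0.78 (SE 0.17, adjusted p = 0.00451). The iron-sulfur subunit of complex II, Sdhb, had 116, 131 and 102 CPM against 162, 229 and 195 CPM, a change of -0.63 (SE 0.17, adjusted p = 0.012). Ndufab1, the mitochondrial acyl carrier protein, and Ndufs7, a core complex I subunit, fell by 0.45 and 0.43 on the log2 scale, and Cox7a1 by 1.17. With the replicate number as a block, a pairing that the labels do not state, 12 nuclear and 11 mitochondrial members were called. Those included 8 of the 9 nuclear members, all but Ndufs7, and all 10 mitochondrial members, to which the block added mt-Atp6. Without depleted replicate 3 or control replicate 2 the count of nuclear members fell from 9 to 4, and without control replicate 3 to 5. Atp5g1, Atp5g3, Cox7a1 and Uqcrc1 were called in every fit that left out 1 library, as were 8 of the 10 mitochondrial members.

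Several other measures differed between the arms of bone at day 10. Rn18s-rs5 made up 94967, 66974 and 93988 CPM in depleted against 17098, 26114 and 20632 CPM in control libraries, without overlap. With the Rn18s-rs5 level as a covariate, 0 of the 12 mitochondrial and 0 of the 86 nuclear members were called, and the mitochondrial median was 0.90. In these libraries that level and the arm cannot be told apart. The mitochondrial ribosomal RNAs rose as well, mt-Rnr1 by 1.39 and mt-Rnr2 by 1.37. Neutrophil markers summed to 17600 to 29571 CPM in depleted against 5080 to 8963 CPM in control libraries, with 8 of 12 higher. Macrophage markers summed to 9448 to 12058 against 13891 to 15489 CPM, and fibroblast and mural markers to 1811 to 2268 against 3311 to 6523 CPM. The part of these in the mitochondrial rise was not tested.

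Genes around the chain showed no rise like that of the mitochondrial members. Of 80 mitochondrial ribosomal protein genes 2 were higher and 6 lower, and of 23 genes for transcription, processing and replication of mitochondrial DNA 0 were called (edgeR; the median log2 change was -0.01). Over all genes tested 8.95% were higher and 8.22% lower, shares that the ribosomal protein genes did not exceed. Among carriers of electrons, adenine nucleotides and phosphate 0 of 19 were higher and 5 lower, including the adenine nucleotide translocators Slc25a4 at -0.53 and Slc25a5 at -0.46. In the tricarboxylic acid cycle Mdh2 fell by 0.52 and Dld rose by 0.59. Acod1, which makes itaconate, an inhibitor of complex II, rose by 2.49 (SE 0.45, adjusted p = 0.00113).

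In bone at day 7 no mitochondrial member of the 12 tested was called in edgeR or DESeq2, with 1 at an unadjusted p under 0.05 and a median change of -0.01, and of 86 nuclear members 1 was higher and 4 lower, where 23.6% of all genes tested were called (11.0% higher and 12.6% lower). The summed levels overlapped in both sets, with a mitochondrial sum of 7541 ± 889 CPM (SD, n = 5) in depleted and 7226 ± 983 CPM (SD, n = 5) in control libraries. The member that moved most was Cox7a1 (chr7:30184144-30186078, plus strand), the heart and muscle isoform of a complex IV subunit. It had 5.32, 7.60, 7.31, 3.60 and 5.65 CPM in depleted against 28.1, 34.3, 18.6, 28.3 and 29.3 CPM in control libraries, a change of -2.26 (SE 0.22, adjusted p = 6.19e-07). No depleted library reached the lowest control, and the same held at day 10, with 9.76, 7.81 and 9.21 CPM against 23.9, 17.3 and 24.1 CPM. Cox7a1 shared none of its sequence words with another gene. Ndufa4l2, a paralogue of the complex IV subunit Ndufa4 that is induced in hypoxia, had 5.09, 0.926, 2.23, 0.171 and 0 CPM against 9.68, 8.63, 7.49, 2.93 and 1.73 CPM and was called at -1.90 (SE 0.65, adjusted p = 0.0412), with overlapping ranges. Uqcrb of complex III fell by 0.50 and Ndufa7 of complex I by 0.40, and Cox5b of complex IV rose by 0.32. Leaving out depleted replicate 1, 3 or 4 or control replicate 1, 2 or 3 gave 2 or 3 nuclear members called in place of 5, and Cox7a1 and Uqcrb were called in all such fits. With the Rn18s-rs5 level as a covariate only Cox7a1 of the 5 was called.

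Beside the fall of Cox7a1, fibroblast and mural markers summed to 134 to 1529 CPM in depleted and 968 to 4047 CPM in control libraries at day 7, and 6 of 10 macrophage markers were lower. Skeletal fibre markers summed to 16.5 to 34.4 against 24.8 to 38.3 CPM. Their part in the change of Cox7a1 was not tested. Among genes that modify macrophage respiration, the hypoxia-responsive Bnip3 fell by 1.57 and Pdk1, which inhibits pyruvate dehydrogenase, by 1.08, while Acod1 rose by 1.07.

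The depletion effect at day 10 minus that at day 7 was positive in all 12 mitochondrial members tested, with a median of 1.13, but 0 of them and 0 of the 86 nuclear members passed in edgeR, where 0% of all genes did. The mitochondrial values were 1.24 (SE 0.25, adjusted p = 0.0692) for mt-Co1 and 1.13 (SE 0.23, adjusted p = 0.0692) for mt-Nd2, and 10 of the 12 had an unadjusted p under 0.05. DESeq2, and edgeR without the filter on low counts, each called 7 mitochondrial members. Of the nuclear members 14 had an unadjusted p under 0.05, and DESeq2 called 3.

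**Figure D3:**
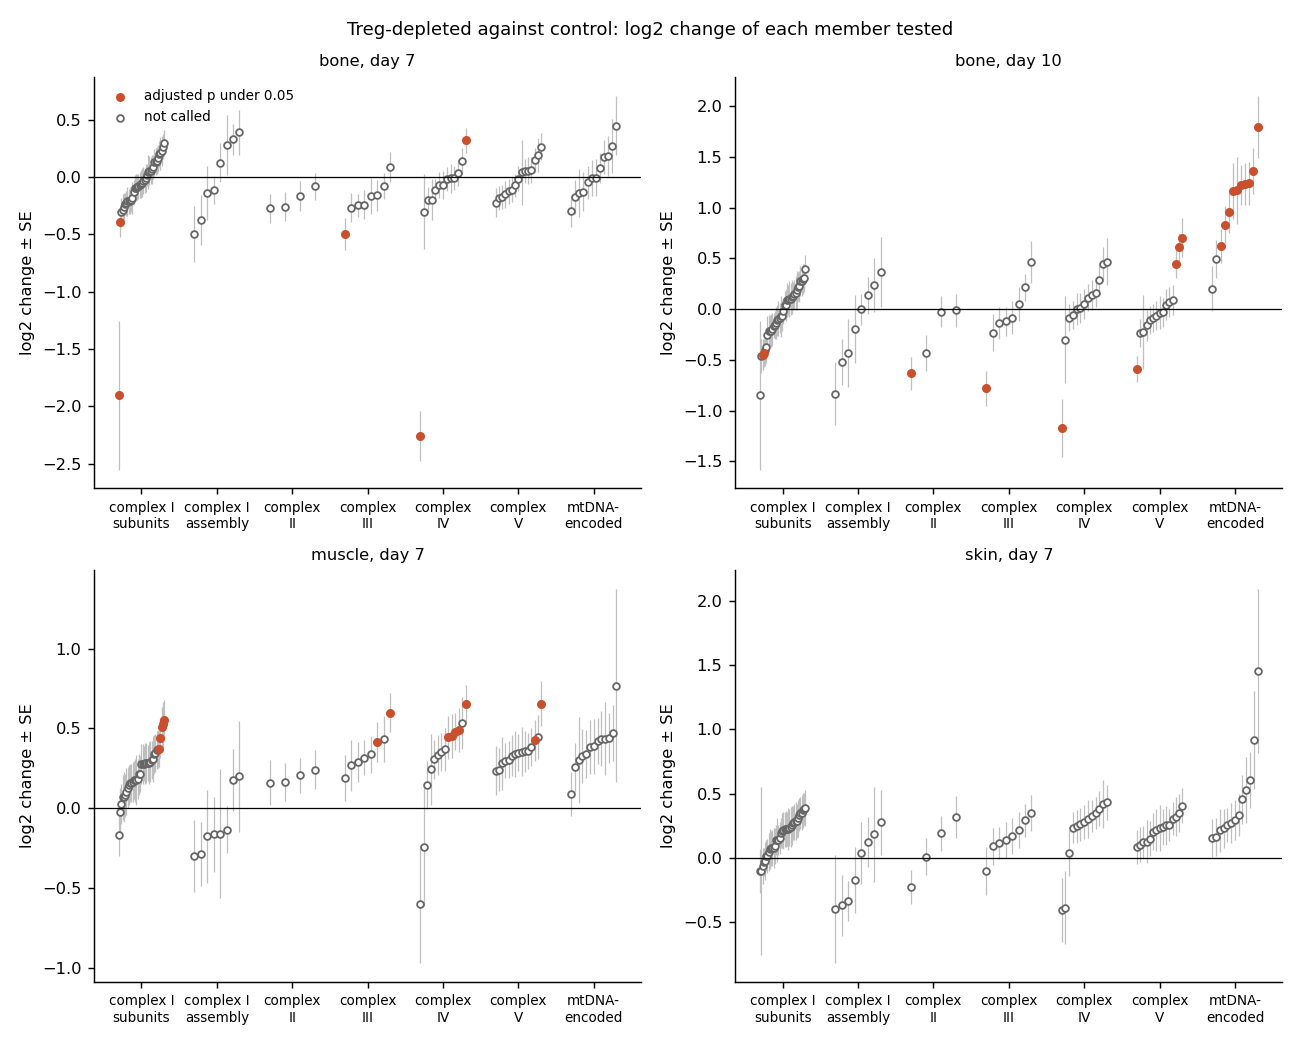
Log2 change (± SE) of each member tested, depleted against control libraries, by complex, for bone at days 7 and 10 and for muscle and skin at day 7, with called members filled. In bone at day 10 the called mitochondrial members lie between 0.62 and 1.79 while the nuclear complexes spread around 0, and in muscle at day 7 the nuclear complexes and the mitochondrial members both lie mostly above 0.

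In muscle at day 7 nuclear members rose by small amounts. Of 86 tested, 14 were higher in depleted libraries and 0 lower, with a median of 0.28 against -0.01 over all genes tested, of which 8.59% were called (4.67% higher and 3.92% lower). All 13 mitochondrial members had positive changes, with a median of 0.39, and 0 were called in edgeR. Of these 7 had an unadjusted p under 0.05, and DESeq2 called 1. The summed nuclear levels were 30120, 25680 and 30389 CPM against 25261, 24489 and 25806 CPM, where depleted replicate 2 lay within the control range. The summed mitochondrial levels were 10715, 12585 and 11097 CPM against 9345, 8958 and 10355 CPM, without overlap, so the log2 ratio differed little, at -1.32 ± 0.26 against -1.40 ± 0.07 (SD, n = 3 each).

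The called members came from complexes I (5 of 37), III (2 of 8), IV (5 of 14) and V (2 of 15). Cox8a, a small subunit of complex IV, had 673, 592 and 796 CPM in depleted against 474, 502 and 454 CPM in control libraries, a change of 0.65 (SE 0.12, adjusted p = 0.00194). Atp5g3 had 388, 247 and 327 CPM against 246, 219 and 201 CPM, a change of 0.66 (SE 0.14, adjusted p = 0.00502). Uqcrh, the hinge subunit of complex III, had 436, 398 and 506 CPM against 321, 330 and 314 CPM, a change of 0.60 (SE 0.12, adjusted p = 0.00377). In each of these the lowest depleted value was replicate 2 and lay above the highest control. Ndufb9, Ndufs4 and Ndufb5 of complex I rose by 0.55, 0.53 and 0.51, and Cox4i1 of complex IV by 0.44 (SE 0.13, adjusted p = 0.0478). The complex II members did not pass, with Sdha at 0.24 (adjusted p = 0.281) and Sdhb at 0.21 (adjusted p = 0.312), nor did the catalytic complex V subunit Atp5b at 0.44 (adjusted p = 0.052). The 8 complex I assembly factors had a median of -0.16 and 0 were called (edgeR). Leaving out depleted replicate 2 raised the nuclear count from 14 to 24, while leaving out depleted replicate 1 or 3 gave 7 or 4, and control replicate 1 or 2 gave 4 or 5. Atp5g3, Cox8a and Uqcrh were called in each of those fits.

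Neutrophil markers summed to 1078 to 2752 CPM in depleted and 209 to 257 CPM in control muscle libraries at day 7, and 6 of 11 tested rose. Rn18s-rs5 made up 21436, 43875 and 15338 CPM against 6329, 10564 and 9126 CPM, a change of 1.76, and with its level as a covariate 9 nuclear members were called. Skeletal fibre markers fell, 4 of 8, with sums of 44.9 to 73.0 against 122 to 144 CPM, and macrophage markers summed to 9834 to 10600 against 13904 to 16124 CPM. The part of these in the rise of the nuclear members was not tested. Beyond the chain, 0 of 81 mitochondrial ribosomal protein genes were called (edgeR; median 0.06), where 8.59% of all genes tested were. Mdh2 of the tricarboxylic acid cycle rose by 0.65, the phosphate carrier Slc25a3 by 0.41 and Ppargc1b, a coactivator of mitochondrial biogenesis, by 1.44. Acod1 rose by 3.61 (SE 0.38, adjusted p = 1.18e-05).

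In muscle at day 4 no member of either set was called in edgeR or DESeq2, where 0.155% of all genes tested in edgeR were (0.0542% higher and 0.101% lower). Of 86 nuclear members 8, and of 13 mitochondrial members 1, had an unadjusted p under 0.05. The nuclear sums were 28196, 25354 and 25277 CPM in depleted against 23292, 22340 and 24324 CPM in control libraries, above without overlap, with an exact permutation p of 0.1, the smallest possible for 3 against 3. The mitochondrial sums overlapped. The depletion effect at day 7 exceeded that at day 4 in 1 nuclear member, Cox8a, by 0.68 (SE 0.17, adjusted p = 0.0435), where 2.41% of all genes passed (1.59% higher and 0.821% lower), and this call was kept without depleted replicate 1 or 2 of day 7 and lost without any other library.

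In skin no member was called in edgeR on either day, where 3.57% of all genes were called at day 4 (2.12% higher and 1.45% lower) and 6.21% at day 7 (2.95% higher and 3.27% lower). Of 86 nuclear members 3 had an unadjusted p under 0.05 at day 4 and 23 at day 7, and of 13 mitochondrial members 2 and 5. DESeq2 called 0 nuclear and 1 mitochondrial member at day 4, and 5 nuclear and 0 mitochondrial members at day 7. The medians at day 7 were 0.21 for nuclear and 0.30 for mitochondrial members, against 0.00 over all genes, and 73 of 86 and 13 of 13 were positive. The nuclear sums at day 7 were 28746, 28666, 20873 and 26672 CPM in depleted against 24233, 24686, 20933 and 21709 CPM in control libraries. Depleted replicate 3 was the lowest of all 8, and the other 3 lay above every control. Without it 17 nuclear and 2 mitochondrial members were called, all higher. It is singled out here after its values were seen, so these counts are a description. That library had 61861 CPM of Rn18s-rs5, against 14726 to 28573 CPM in the other depleted and 7966 to 20965 CPM in the control libraries. Neutrophil markers summed to 344 to 1824 CPM in depleted and 1067 to 1978 CPM in control libraries. Among single members Cox5a, a complex IV subunit, was closest to the threshold, at 0.43 (SE 0.14, adjusted p = 0.0589). At day 4 the medians were 0.03 and 0.02.

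The depletion effects at day 7 were then compared between tissues within one fit of bone, muscle and skin. The effect in bone was below that in muscle in 11 of 87 nuclear members and above it in 0, where 8.28% of all genes passed (3.09% higher and 5.19% lower), and 0 of 13 mitochondrial members differed in edgeR or DESeq2, or at an unadjusted p under 0.05. Among the 11 were Cox7a1 at -2.49 (SE 0.37, adjusted p = 1.6e-05), Cox8a at -0.76 (SE 0.15, adjusted p = 0.000839) and Uqcrh at -0.75 (SE 0.22, adjusted p = 0.0221). The count was 2 to 7 without bone depleted replicate 4, bone control replicate 5, muscle depleted replicate 1 or 3 or muscle control replicate 1 or 2, and 18 without bone depleted replicate 5, and Cox7a1 and Cox8a were called in every one of those fits. Against skin, bone was lower in 3 members, Cox7a1 at -1.84 (SE 0.35), Ndufa13 at -0.55 (SE 0.15) and Cox8a at -0.44 (SE 0.14), and higher in 1, the assembly factor Ndufaf3, at 0.69 (SE 0.20), where 9.37% of all genes passed (3.79% higher and 5.58% lower). Without skin depleted replicate 3 this count was 17, and without bone depleted replicate 5 it was 8. Between muscle and skin 0 members of either set differed in edgeR or DESeq2, with 4 nuclear and 0 mitochondrial members at an unadjusted p under 0.05, where 2.78% of all genes passed (2.26% higher and 0.516% lower).

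The heart table needs its day-4 controls described first, because they stood apart from the other 9 heart libraries in genes with copies elsewhere in the genome. Cox7c (chr13:86044816-86046904, minus strand), a small subunit of complex IV of which 24.5% of sequence words occur in other genes, had 507, 540 and 571 CPM in day-4 controls and 27.2 to 36.3 CPM in the others. Atp5g1 had 472, 528 and 539 CPM against 61.8 to 146 CPM. Cytosolic ribosomal protein genes, which have many processed pseudogenes, followed the same split: 65 of 78 were lower in day-4 depleted libraries than in day-4 controls, with a median of -2.07, and 71 of 78 were lower in day-7 than in day-4 controls. Over all genes tested 6.85% were lower in the first of these comparisons and 16.9% in the second. Both the day-4 depletion comparison and the day comparison in controls rest on these 3 libraries.

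In heart at day 4, 12 of 87 nuclear members were higher in depleted libraries and 11 lower, and 2 of 8 mitochondrial members were lower, where 11.1% of all genes were called (4.25% higher and 6.85% lower). The 2 mitochondrial members were mt-Nd2 and mt-Nd3, and the row of mt-Nd3 does not on its own measure its transcript, as described above. With DESeq2's size factors (RLE) in edgeR, 18 nuclear members were higher and 10 lower. Among the members called, the directions differed with sequence overlap, and the part of shared sequence in this was not tested. Among the 45 nuclear members sharing under 5% of their words, 10 were higher and 0 lower, whereas among the 42 sharing more, 2 were higher and 11 lower. The nuclear members with the largest shares, Ndufaf2 at 65.1% and Atp5o at 49.6%, were not called. The 11 lower members shared 11.7% to 40.2% of their words, and the largest falls were Cox7c at -3.97, Atp5g2 at -2.84 and Atp5g1 at -1.94. Of the higher members 10 belonged to complex I. Ndufs4, an accessory subunit of complex I without shared words, had 222, 217 and 248 CPM against 146, 157 and 137 CPM, a change of 0.64 (SE 0.10, adjusted p = 0.000268). Ndufb8 had 812, 707 and 784 CPM against 474, 535 and 510 CPM, a change of 0.60 (SE 0.12, adjusted p = 0.00187). Uqcrfs1, the Rieske iron-sulfur protein of complex III, rose by 0.44 (SE 0.11, adjusted p = 0.00961). In each of these 3 the depleted values lay above all controls. Leaving out depleted library F1, F2 or F3 gave 14, 15 or 15 nuclear members called in place of 23, and leaving out control library W1 or W4 gave 14. Of the 23, 12 were called in every fit that left out 1 library, among them Ndufs4, Ndufb8, Cox7c, Atp5g1 and Atp5g2.

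**Figure D4:**
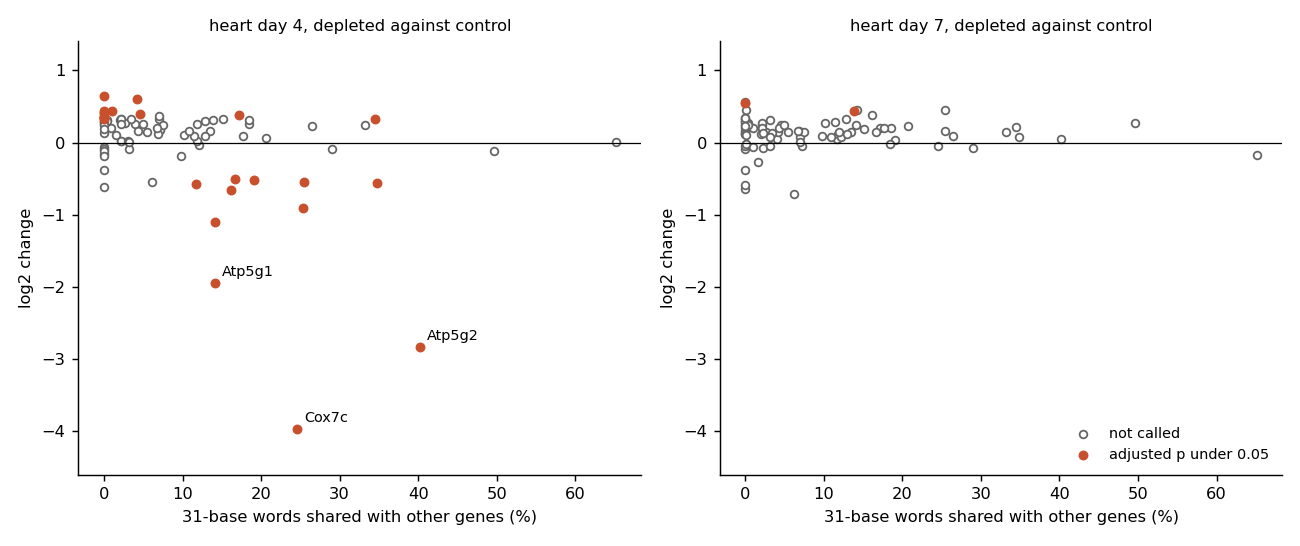
Log2 change of each of the 87 nuclear members tested, depleted against control heart libraries at day 4 (left) and day 7 (right), against the percentage of its 31-base sequence words found in other genes. At day 4 the 11 lower members all share 11.7% or more, and at day 7 Cox7c, Atp5g1 and Atp5g2 are not called.

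In heart at day 7, 2 of 87 nuclear members were higher, 0 lower, and 2 of 8 mitochondrial members were lower, where 3.14% of all genes were called (1.58% higher and 1.56% lower). The nuclear median was 0.15, with 70 of 87 changes positive, and the mitochondrial median -0.37. At an unadjusted p under 0.05, 25 nuclear members were higher and 2 lower, and 4 mitochondrial members were lower, while DESeq2 called 9 nuclear and 3 mitochondrial members. Atp5g3 had 199, 192 and 153 CPM in depleted against 118, 109 and 135 CPM in control libraries, a change of 0.55 (SE 0.15, adjusted p = 0.0483). Cox5a, a subunit of complex IV, had 708, 670 and 634 CPM against 484, 471 and 488 CPM, a change of 0.44 (SE 0.11, adjusted p = 0.0361). Without any 1 of depleted library FDG1 or FDG2 or the 3 controls, 0 nuclear members were called, and without FDG3 the number was 4. The lower mitochondrial members were mt-Nd3, whose row does not on its own measure its transcript as described above, and mt-Nd2. The latter had 467, 506 and 684 CPM against 801, 747 and 738 CPM, a change of -0.52 (SE 0.14, adjusted p = 0.0469). At day 4 mt-Nd2 had 641, 681 and 708 CPM against 862, 1011 and 1149 CPM, a change of -0.59 (SE 0.14, adjusted p = 0.00927). The depleted values lay below all controls on both days, but the call was lost at day 7 without FDG1, FDG2 or any 1 control, and at day 4 without control W4.

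Summed levels in heart differed in range for the nuclear members and not for the mitochondrial members. Nuclear sums were 27189, 26455 and 27923 CPM in depleted against 23604, 23660 and 24036 CPM in control libraries at day 7, and 33079, 32797 and 33391 against 29127, 31422 and 30454 CPM at day 4. The depleted libraries were above the controls on both days. The mitochondrial sums overlapped on both days, and the log2 ratio was lower in depleted libraries without overlap, at -1.88 ± 0.23 against -1.40 ± 0.06 at day 7 and -2.07 ± 0.08 against -1.84 ± 0.19 at day 4 (SD, n = 3 each). Each of these gave an exact permutation p of 0.1, the smallest possible, and 0.3 adjusted over 24 comparisons. The striated-muscle isoform Cox6a2 was lower in depleted libraries without overlap, at means of 5.17 against 7.43 CPM at day 4 and 5.88 against 9.59 CPM at day 7. Cox7a1 was lower without overlap at day 7 only (16.2 against 23.2 CPM), and Cox8b overlapped on both days. None of these isoforms was called on either day in edgeR. The part of muscle-cell RNA in the heart sums was not tested.

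Between days in controls, heart was the tissue with the most members called. Day-7 heart controls were lower than day-4 controls in 48 of 87 nuclear members and higher in 2, with a median of -0.34 and with 31.8% of all genes called (15.0% higher and 16.9% lower). Complex V had the largest share, with 14 of 15 lower. Its largest falls were Atp5g1 at -3.03, Atp5g2 at -2.53 and Atp5l at -1.35. These members share 14.1%, 40.2% and 14.2% of their words with other genes, while Atp5g3, which shares 0%, was at -0.91. The day-4 controls are the libraries described above as standing apart in genes with copies. Of the 45 members with under 5% of words shared, 20 were lower and 1 higher. Uqcrc1 was at -0.59 (SE 0.10) and Ndufs4 at -0.33 (SE 0.10), while Cox7a2l was higher by 0.42 and Ndufa6 by 0.38. Mitochondrial ribosomal protein genes were lower in 32 of 77 and tricarboxylic acid cycle genes in 11 of 18. Neutrophil markers were lower in 10 of 11, with sums of 194 to 289 against 609 to 797 CPM, and their part in these changes was not tested. Of the 8 mitochondrial members 1, mt-Nd2, was lower, at -0.48 (SE 0.14, adjusted p = 0.0121), and this call was lost without day-7 control WT3 or day-4 control W4. In bone (day 10 against day 7) and muscle (day 7 against day 4) 0 members were called in edgeR, where 0.0393% (0.0393% higher and 0% lower) and 7.24% (4.49% higher and 2.75% lower) of all genes were. In bone 9 nuclear and 2 mitochondrial members, and in muscle 5 and 0, had an unadjusted p under 0.05, and DESeq2 called 1 nuclear member in muscle and none in bone. In skin 0 nuclear members (4 at an unadjusted p under 0.05, 0 in DESeq2) and 1 mitochondrial member, mt-Co3 at -0.51, were called, where 2.27% of all genes were (1.42% higher and 0.848% lower), and it was lost without any 1 of the control libraries.

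The difference of depletion effects between days in heart was called in 9 nuclear members, all higher at day 7, where 4.09% of all genes passed (3.21% higher and 0.882% lower). All 9 shared 5% or more of their words with other genes, among them Cox7c at 3.92 and Atp5g1 at 2.19, and 64 of 78 cytosolic ribosomal protein genes did the same. In skin 0 members of either set differed between days in edgeR or DESeq2, with 5 nuclear and 1 mitochondrial members at an unadjusted p under 0.05, where 0.848% of all genes passed (0.262% higher and 0.587% lower).

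Some complex IV subunits exist as isoforms of heart and skeletal muscle, and their low levels differed between tissues. Cox6a2 (chr7:128205435-128206387, minus strand), the striated-muscle isoform of subunit 6A, had 5.97, 4.37 and 6.98 CPM in muscle controls at day 7, 0.467 to 1.99 CPM in bone and 0.742 to 1.81 CPM in skin. The muscle values lay above all others, and Cox6a2 was lower in bone than in muscle by a change of -2.49 (SE 0.52, adjusted p = 0.000648) and higher in muscle than in skin by 2.33 (SE 0.54). Heart controls had 6.90 to 11.0 CPM. Skeletal fibre markers summed to 122 to 144 CPM in muscle controls at day 7 and 24.8 to 63.9 CPM in those of bone and skin, and their part in the level of Cox6a2 was not tested. Cox8b, the striated-muscle isoform of subunit 8, was at most 2.25 CPM in all 56 libraries. Cox6b2, known from testis, was higher in bone than in muscle by 1.21 (SE 0.35, adjusted p = 0.0158) and higher in skin than in muscle, with a muscle minus skin change of -1.05 (SE 0.36, adjusted p = 0.0496). Ndufa4l2 was higher in bone than in muscle controls by 2.60 (SE 0.81, adjusted p = 0.0258), at 1.73 to 9.68 against 0.291 to 1.53 CPM. In bone at day 7, where Cox7a1 fell, Cox7a2, the isoform found in most tissues, was at 0.14 (SE 0.11, adjusted p = 0.394).

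**Figure D5:**
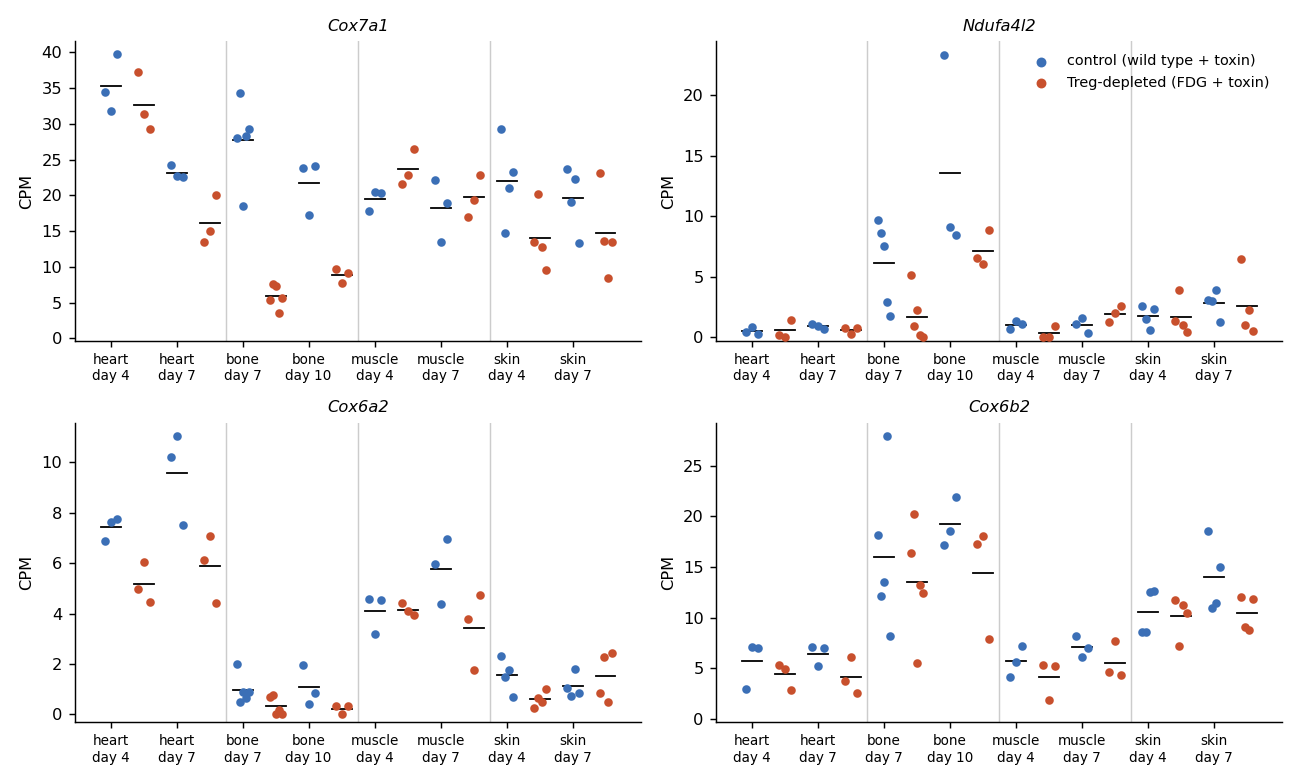
CPM of Cox7a1, Ndufa4l2, Cox6a2 and Cox6b2 in each library (points) with group means (lines), in pairs of control (left) and depleted (right) for each tissue and day. Cox7a1 lies between 3.60 and 9.76 CPM in the depleted bone libraries and between 17.3 and 34.3 CPM in the bone controls, and Cox6a2 is highest in heart and muscle.

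Promoters were searched because nuclear members moved together in several comparisons. Nuclear respiratory factor 1 binds a GC-rich palindrome, of which GCATGCGC was sought here on both strands. Among the 74 nuclear members with a promoter in the RefSeq table of GRCm38.p6 (250 bases before to 50 after the start), 12 held it, or 16.2%, against 824 of 27025 genes, or 3.05%. The word CCGGAAGT, a core bound by ETS-family factors, was in 5 on either strand, or 6.76%, against 4.31% of all genes. Neither word contains the other. A match describes the letters only. The stretches that follow show the word in capitals in the promoters of Atp5k, higher in bone than in muscle and skin controls, of Sdhb, which fell in depleted bone libraries at day 10, and of Atp5h, which rose in them with overlapping groups. Coordinates are of GRCm38.p6.
Atp5k (chr5:108434415-108434472, minus strand): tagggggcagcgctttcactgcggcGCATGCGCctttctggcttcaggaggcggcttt
Sdhb (chr4:140961192-140961249, plus strand): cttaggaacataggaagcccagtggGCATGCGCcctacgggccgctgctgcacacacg
Atp5h (chr11:115419926-115419983, minus strand): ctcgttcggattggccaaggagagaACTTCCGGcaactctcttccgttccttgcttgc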

How the data were processed

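Libraries were made by poly-A priming and template switching with a 10-base UMI, per the labels' protocols. The sources used here do not give how UMIs were handled, the annotation or the tool versions. The authors deposited whole gene counts for heart, and for bone, muscle and skin estimated counts per gene. Of the non-zero estimated counts as deposited by the authors, 19.4% were off a whole number by over 0.01, and all were rounded before testing. The submitters' processing notes list STAR, Salmon, featureCounts and limma with GRCm38 for heart, and STAR, featureCounts and limma with GRCm38 and GRCm39 for the others.

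Each tissue was fitted with its 4 groups in edgeR 4.0.16 (R 4.3.3): TMM, filterByExpr, robust quasi-likelihood test, Benjamini-Hochberg adjustment over all genes, threshold 0.05. Tissues were compared in 1 fit of the 12 bone, muscle and skin groups. Summed CPM used exact permutation tests over libraries. Sequence words of 31 bases were compared over GENCODE transcripts. Alternatives were DESeq2 1.42.0, RLE normalization, no filter on low counts, an Rn18s-rs5 covariate, a replicate block and leaving out each library. On simulated data with 200 changed genes the test found 29.9% to 62.9% of 2-fold and 75.8% to 93.9% of 4-fold changes, across tissues.

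Named genes were all mitochondrial members, a fixed panel, and in each comparison the 6 called nuclear members per direction with the largest change and a mean of at least 5 CPM in a group; others were chosen after their values were seen. The members and lists were chosen with earlier results of these data known. Replicate numbers were checked for pairing. In bone at day 10 the deviations of same-numbered libraries correlated at 0.18, 0.10 and 0.11, each highest with its own number. These correlations are weak and the labels name nothing that same-numbered libraries share, so a pairing is not established. The values reported come from the fit without the block, and the blocked values that change a call are given beside them. No 2 libraries of a group agreed within sampling noise.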

Additional observations from a re-analysis of the deposited data

Results flagged for a closer look

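In skin at day 4, depleted replicate 1 lay far from the other 3 depleted libraries in the log2 ratio of mitochondrial to nuclear sums, at -1.31 against -0.83 to -0.76. Among the groups of 4 or 5 libraries tested, chance sets apart about 1 in 20.

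The depletion effect differed between days in heart (day 7 minus day 4) in 9 nuclear members by the interaction term in edgeR. The differences were 3.92 for Cox7c, 2.89 for Atp5g2, 2.19 for Atp5g1, 1.54 for Atp5l, 1.06 for Atp5h, 1.04 for Cox5b, 0.99 for Ndufs3, 0.63 for Ndufab1 and 0.62 for Uqcrb. All 9 share 5% or more of their sequence words with other genes. In muscle the effect on Cox8a was larger at day 7 than at day 4 by 0.68.

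The depletion effect at day 7 was lower in bone than in muscle in 11 nuclear members. The differences were -2.49 for Cox7a1, -0.76 for Cox8a, -0.75 for Uqcrh, -0.75 for Uqcrb, -0.67 for Uqcr10, -0.59 for Atp5l, -0.59 for Atp5g3, -0.57 for Uqcr11, -0.57 for Ndufv3, -0.51 for Atp5c1 and -0.50 for Ndufa13. Between bone and skin the differences were -1.84 for Cox7a1, -0.55 for Ndufa13, -0.44 for Cox8a and 0.69 for Ndufaf3.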

How the results depend on the processing

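No named member that was called changed its sign under any alternative run that tested it. The other counts of members called stayed within 1.5 times of those reported, and the cause of each change below was not tested. With DESeq2 the nuclear counts were 38 in heart at day 4, 9 in heart at day 7, 8 in bone at day 7, 34 in muscle at day 7, 5 in skin at day 7 and 1 between days in muscle controls. DESeq2 called 1 mitochondrial member in muscle at day 7, in skin at day 4 and between muscle and skin controls. For differences of depletion effects DESeq2 gave 3 nuclear and 7 mitochondrial members between days in bone, 2 nuclear between days in muscle, 18 for bone minus muscle and 12 for bone minus skin. RLE normalization gave 1 mitochondrial member in heart at day 7. Without the filter on low counts the mitochondrial counts were 4 in heart at day 7, 3 in muscle at day 7, 2 in skin at day 4, 1 in skin at day 7, 2 between days in heart controls, 1 in bone controls, 2 between muscle and skin and 7 for the difference between days in bone. The nuclear counts were then 1 in skin at day 4, 17 for bone against muscle, 3 for muscle against skin, 4 for the effect in bone minus muscle and 1 for bone minus skin. With the Rn18s-rs5 covariate the nuclear counts were 1 in bone at day 7, 0 at day 10, 9 in muscle and 2 in skin at day 7 and 0 for the difference between days in muscle, and the mitochondrial counts 0 in bone at day 10, 0 between days in skin and 5 for bone against muscle. This covariate could not be fitted in heart, where the gene is not in the table used.

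With the replicate number as a block, the nuclear counts were 8 in muscle at day 7, 1 in skin at day 4, 2 for muscle against skin, 7 for the effect in bone minus muscle and 2 for bone minus skin. The block gave mitochondrial counts of 1 in skin at day 4, 1 at day 7, 0 between days in skin, 6 for bone against muscle, 1 for muscle against skin and 7 for the difference between days in bone. In bone at day 10, where each same-numbered pair correlated over 0.1, the block gave 12 nuclear and 11 mitochondrial members. Of 22 same-numbered pairs 9 correlated over 0.1 and 10 were highest with their own number. No paired analysis was possible in heart because the numbers in its column names are not tied to the replicate numbers of the labels.

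Leaving out 1 library at a time, the nuclear counts were 14 to 16 in heart at day 4, 0 to 4 in heart at day 7, 2 to 5 in bone at day 7, 4 to 12 in bone at day 10, 4 to 24 in muscle at day 7, 0 to 1 in skin at day 4, 0 to 17 in skin at day 7, 15 to 32 for bone against muscle and 2 to 4 for muscle against skin. The mitochondrial counts were 1 to 2 in heart at day 4, 1 to 3 at day 7, 0 to 1 in skin at day 4, 0 to 2 in skin at day 7, 0 to 2 between days in heart, 0 between days in skin, 7 to 11 for bone against skin and 0 to 1 for muscle against skin. For differences of effects they were 0 to 3 mitochondrial members between days in bone, 0 to 1 nuclear between days in muscle and in skin, 2 to 18 nuclear for bone minus muscle, and 3 to 17 nuclear and 0 to 1 mitochondrial for bone minus skin. The summed levels of skin at day 7 differed by 0.150 to 0.292 (nuclear) and 0.175 to 0.302 (mitochondrial) on the log2 scale.

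Of the sums, the nuclear log2 difference was 0.266 with few shared words in heart at day 4. With TMM library sizes it was 0.153 in heart, 0.0114 in bone at day 10 and 0.311 in muscle at day 7, where the mitochondrial difference was 0.384. With totals taken over all other genes the nuclear difference in bone at day 10 was 0.022. The ratio there was 1.04 as a mean of log2 over members, and the ratio between days in heart controls was 0.247 with few shared words in both sets, an alternative chosen after seeing the data, as was the other with few shared words. Counts of a few reads limit mt-Nd6, mt-Nd3 in heart, Cox8b and Ndufa4l2.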
